A study of Mus musculus with 6 samples.

Results

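RNA-Seq values of the chemokine receptor gene *Ccr2* and of 4 genes for its CC chemokine ligands, *Ccl2*, *Ccl7*, *Ccl8* and *Ccl12*, were compared in osteoclast precursors. The 5 genes were chosen by gene symbol among 24346 symbols, and each was found once in the table of every mouse. The samples were EGFP+ marrow cells sorted from the calvaria of CX3CR1-EGFP knock-in mice, in which the *Cx3cr1* promoter drives the reporter, so the sort took in any cell type that uses this promoter. Each of the 6 mice had been injected with lipopolysaccharide (LPS, 20 mg/kg) at the periosteum of the calvaria. The JAK inhibitor group (3 mice) took ABT-317, a JAK1 inhibitor, orally at 60 mg/kg in 2 doses per day until day 5, and the vehicle group (3 mice) took vehicle. No mice without LPS were among the samples, and the age of the mice used for RNA-Seq is not given in the sources used here. The sample labels describe the treatment as that of cells and the methods as that of mice. The values are FPKM, fragments scaled by transcript length and by the number of mapped fragments, which allow levels to be compared between genes. The FPKM summed to 688372 to 775790 per mouse, and read depth is unknown.

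CCR2 is the receptor by which classical monocytes leave the bone marrow and enter inflamed tissue. Its ligands are small secreted proteins of the monocyte chemoattractant protein (MCP) family: CCL2 is MCP-1, CCL7 is MCP-3, CCL8 is MCP-2 and CCL12 is MCP-5, which is known from the mouse. Mouse CCL8 is also known as an agonist of another receptor, CCR8. Monocytes are the cells from which osteoclasts form. Macrophages, endothelial cells and fibroblasts are known sources of these ligands, and the cytokines and LPS that activate NF-kB, as well as interferons that act through JAK and STAT proteins, are known inducers.

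On mouse build GRCm38 (mm10, annotation GENCODE M21), *Ccr2* lies on chromosome 9 from 124101950 to 124113557 on the plus strand. The ligand genes lie together on the plus strand of chromosome 11, within 81229 bases: *Ccl2* from 82035571 to 82037453, *Ccl7* from 82045712 to 82047525, *Ccl12* from 82101845 to 82103400 and *Ccl8* from 82115185 to 82116799. The eotaxin gene *Ccl11*, which lies between *Ccl7* and *Ccl12*, and *Ccl1*, the next gene after *Ccl8*, were listed at 0 in all 6 mice. The longest identical stretch between annotated transcripts of any pair of the 5 genes was 23 bases, between *Ccl2* and *Ccl7*, against a read length of 75 bases. *Ccl2* overlaps the gene *Gm17268* on the opposite strand. The labels and the methods name different library kits, so whether the counting could separate the strands is not known.

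The promoters of *Ccl12* and *Ccl8* are shown because these ligand genes had the largest differences between the groups on the log2(FPKM + 1) scale and were in the promoter table. Each is the 250 bases before the start site (RefSeq, GRCm38.p6, plus strand), chr11:82101595-82101844 for *Ccl12* and chr11:82114935-82115184 for *Ccl8*. Capitals mark the letters TATAAA, the core of a TATA box.
Ccl12: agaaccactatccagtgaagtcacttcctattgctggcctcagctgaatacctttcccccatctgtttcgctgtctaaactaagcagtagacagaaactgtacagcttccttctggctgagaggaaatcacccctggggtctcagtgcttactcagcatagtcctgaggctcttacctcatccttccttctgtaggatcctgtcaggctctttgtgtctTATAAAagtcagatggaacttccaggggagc
Ccl8: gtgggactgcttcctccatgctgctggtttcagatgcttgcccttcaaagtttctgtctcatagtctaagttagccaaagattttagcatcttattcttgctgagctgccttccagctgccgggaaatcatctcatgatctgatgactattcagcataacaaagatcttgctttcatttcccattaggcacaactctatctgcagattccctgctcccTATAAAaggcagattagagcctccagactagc

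TATAAA began 31 bases before the start site of *Ccl12* and 32 bases before that of *Ccl8*. On the strand of the gene, it was found in 7.59% of 32851 promoter windows of this length. On either strand, neither sequence held the NF-kB letters GGGA and CC spaced by 4 bases (in 17.6% of all windows), the STAT letters TTC and GAA spaced by 3 bases (7.02%) or by 4 bases (5.85%), or the letters GAAA repeated after 2 bases, as in an interferon response element (2.98%), so no matches overlapped. The window of *Ccr2*, chr9:124101933-124102182, held none of these motifs, TATAAA included. Most of this window lies within the *Ccr2* gene of the GENCODE annotation, which starts at 124101950. It therefore does not describe the bases before that start. These matches describe letters in short windows and are not evidence of binding.

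The sorted cells carried genes of classical monocytes in every mouse. *Ly6c2*, which encodes the Ly6C antigen of these cells, had an FPKM of 4463, 4617 and 2751 in vehicle-treated mice 1 to 3 and 4475, 4076 and 4494 in JAK inhibitor-treated mice 1 to 3. *Cx3cr1*, the gene of the reporter, had 30.1, 31.5 and 15.5 with vehicle and 30.1, 29.5 and 36.1 with JAK inhibitor. Vehicle-treated mouse 3 stood apart from the other mice. It had the lowest *Ly6c2* and *Cx3cr1* and the highest sum of 10 osteoclast genes. That sum was 317.3, 207.1 and 686.9 FPKM in vehicle-treated mice 1 to 3 and 154.9 to 158.8 in the JAK inhibitor-treated mice, and the groups did not overlap. Of 9 tested osteoclast genes, 6 were lower and 1 higher at an unadjusted p under 0.05 (against 9.4% lower and 6.57% higher of all tested genes), with 0 at an adjusted p under 0.05 and a median log2 fold change of -1.19. Genes of the neutrophil list were also found in the sorted cells, with a sum over 11 genes of 17208 to 23283 with vehicle and 17314 to 24502 with JAK inhibitor. That sum came mainly from *S100a8*, *S100a9*, *Mpo* and *Elane* and does not measure the number of neutrophils. Over all mice, *Camp* had 182 to 1097 FPKM and *Ngp* 287 to 722, but *Retnlg* had 2.51 to 74.1 and *Cxcr2* 2.96 to 11.5. *Ly6g* was not among the gene symbols. *S100a8* alone reached 15469 in vehicle-treated mouse 3. The granule genes *Ltf* and *Ngp* overlapped between the groups (log2 fold changes 0.63 and 0.58). Of the 11 genes, 4 were higher and 2 lower with JAK inhibitor without overlap (against 9.92% and 12.1% of all tested genes). *Elane*, *Mpo*, *Camp* and *Csf3r* were higher (log2 fold changes 1.12, 0.93, 1.64 and 0.19), and *Mmp8* and *Cxcr2* were lower (-1.06 and -0.80). All had an adjusted p of 0.0781 or more in limma. Sums of 7 erythroid genes (28.1 to 60.6 with vehicle, 88.5 to 163.7 with JAK inhibitor) and of 9 lymphocyte genes, mostly *Nkg7* (203.9 to 373.5 and 491.2 to 571.6), did not overlap either. The part of these cell types in the ligand values was not tested. Markers of stromal and endothelial cells were mixed. *Pdgfra* and *Dcn* were listed at 0 in every mouse, and *Col1a1* and *Cxcl12* reached at most 0.184 and 0.045 FPKM. The sum of all 12 such genes, 16.2 to 34.9 with vehicle and 32.7 to 43.4 with JAK inhibitor, came mainly from *Pecam1* (11.4 to 34.4), which leukocytes also express, and *Runx2* (2.98 to 6.56), while *Pdgfrb* reached 2.58. *Pecam1* and *Runx2* exceeded *Ccl7* in every mouse.

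*Ccr2* was among the most highly expressed genes and had nearly the same level in both groups. Its FPKM was 156, 198 and 194 in vehicle-treated mice 1 to 3 and 200.1, 165 and 187 in JAK inhibitor-treated mice 1 to 3. The lowest value belonged to a vehicle-treated mouse and the highest to a JAK inhibitor-treated mouse, and the groups overlapped throughout. At least 96.6% of all gene symbols lay below *Ccr2* in each mouse. The mean of the vehicle group was 183 ± 23.4 (SD, n = 3) and that of the JAK inhibitor group 184 ± 17.7 (SD, n = 3). On the log2(FPKM + 1) scale used throughout, the fold change was 0.01 (SE 0.12, adjusted p = 0.967 in limma). Its 95% confidence interval ran from -0.25 to 0.28, so a difference between 16.1% lower and 21.6% higher was within the error of these 6 mice. The sign depended on single mice, since omitting mouse 1 of the JAK inhibitor group gave -0.05 and omitting mouse 1 of the vehicle group gave -0.10.

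All 4 ligand genes had lower means with JAK inhibitor, by unequal amounts and with unequal error. *Ccl12* passed the adjusted threshold and fell by 2.06 on the log2 scale. *Ccl7* was low in every mouse and at or near 0 with JAK inhibitor. On the log2(FPKM + 1) scale, *Ccl8* had the largest difference and the largest spread, and *Ccl2* had the smallest difference. With a pseudocount of 0.1, *Ccl12* (-3.75) and *Ccl7* (-3.59) lay below *Ccl8* (-3.07). Of the 5 genes, 1 was lower at an adjusted p under 0.05, against 0.0973% of the 11301 genes tested, and 3 were lower at an unadjusted p under 0.05, against 9.4%. None was higher at either threshold, against 0.0354% and 6.57% of the tested genes. Both *Ccl7* and *Ccl12* passed the filter on low values, 1 FPKM or more in any mouse, through vehicle-treated mice alone, so these counts describe the genes and are no test of the group. In sorted bulk cells, fewer cells of a type that makes a ligand and less RNA per cell cannot be told apart.

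**Figure D1:**
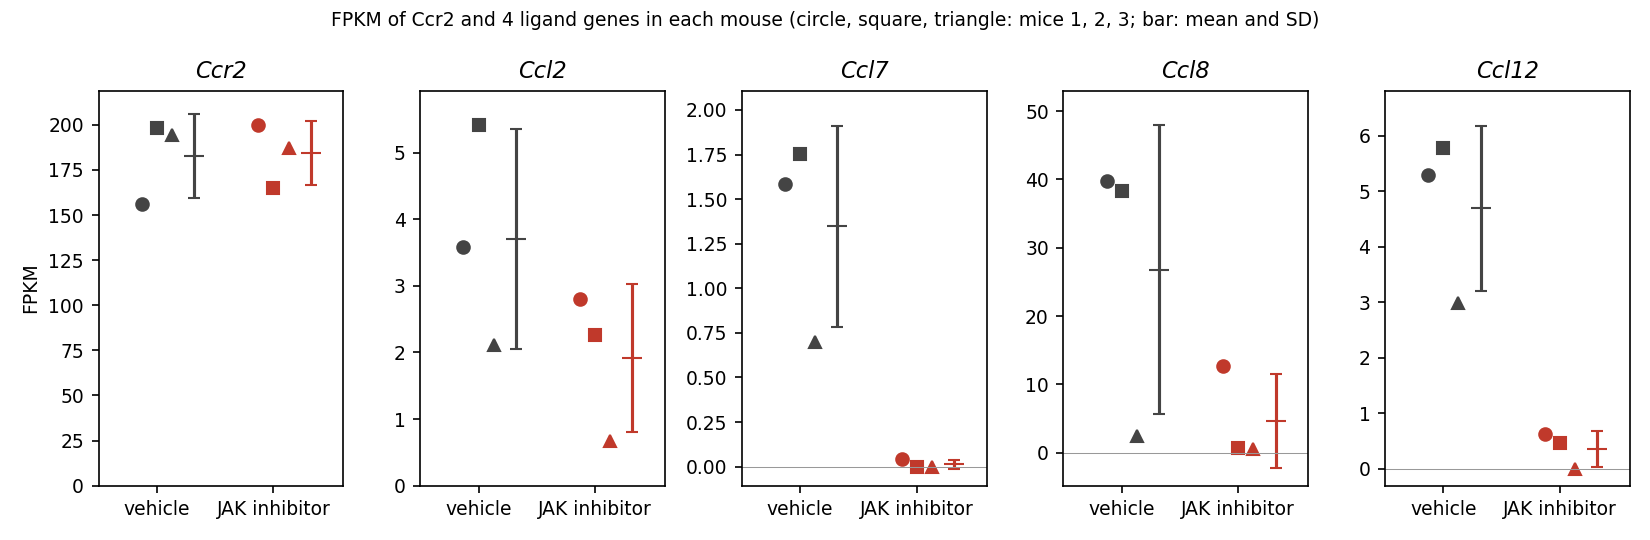
FPKM (vertical axis, a separate linear scale for each gene) of *Ccr2* and the ligand genes in vehicle-treated (gray) and JAK inhibitor-treated (red) mice. Circles, squares and triangles are mice 1, 2 and 3 of each group, and bars are the mean and SD. *Ccr2* overlapped between the groups, all JAK inhibitor-treated mice lay below all vehicle-treated mice for *Ccl7* and *Ccl12*, and vehicle-treated mouse 3 had an FPKM of 2.36 for *Ccl8* and its group mates had 39.8 and 38.3.

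The FPKM of *Ccl12* was 5.3, 5.78 and 2.99 with vehicle and 0.63 and 0.452 in JAK inhibitor-treated mice 1 and 2. The table of JAK inhibitor-treated mouse 3 lists it at 0. The lowest vehicle-treated mouse lay above the highest JAK inhibitor-treated mouse. The groups did not overlap in this direction for 12.1% of all tested genes, and in the opposite direction for 9.92%. The mean with vehicle was 4.69 ± 1.49 (SD, n = 3). In limma the log2 fold change of -2.06 had an SE of 0.28 (95% confidence interval -2.69 to -1.42, adjusted p = 0.0359). An exact 2-sided permutation test cannot go below p = 0.1 with 3 mice in each group, and that was its value. Only 0.177% of the tested genes had a lower log2 fold change. The adjusted call was lost when JAK inhibitor-treated mouse 1, 2 or 3 (adjusted p = 0.095, 0.15 and 0.138 in limma) or vehicle-treated mouse 1 (0.0793) was left out, while the log2 fold change stayed between -2.29 and -1.85 over all 6 omissions. With a pseudocount of 0.1 in place of 1, it was -3.75.

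*Ccl7* had an FPKM of 1.58, 1.755 and 0.701 with vehicle and 0.043 in JAK inhibitor-treated mouse 1. The tables of JAK inhibitor-treated mice 2 and 3 list it at 0. The groups did not overlap. The log2 fold change was -1.18 (SE 0.26, adjusted p = 0.109 in limma, exact 2-sided permutation test p = 0.1), and it did not pass the adjusted threshold. With values this near 0, its size was set by the pseudocount, and it was -3.59 with 0.1 in place of 1.

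*Ccl8* had an FPKM of 39.8, 38.3 and 2.36 with vehicle and 12.6, 0.654 and 0.56 with JAK inhibitor. It was the highest ligand gene in vehicle-treated mice 1 and 2 and in JAK inhibitor-treated mouse 1. Of the summed FPKM of the 4 ligand genes, it made up 79.2%, 74.7% and 28.9% in vehicle-treated mice 1 to 3. In JAK inhibitor-treated mice 1 to 3, its share was 78.4%, 19.4% and 45.6%. The groups overlapped, since JAK inhibitor-treated mouse 1 lay above vehicle-treated mouse 3. The log2 fold change was -2.42 (SE 1.06, adjusted p = 0.311 in limma, exact 2-sided permutation test p = 0.2). It was -3.61 without vehicle-treated mouse 3 (adjusted p = 0.0785 in limma), -3.45 without JAK inhibitor-treated mouse 1 and between -1.93 and -1.81 without any of the other mice.

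*Ccl2*, the ligand gene that is most studied in monocyte recruitment, had an FPKM of 3.58, 5.41 and 2.115 with vehicle and 2.81, 2.26 and 0.669 with JAK inhibitor. The highest values were in vehicle-treated mice 1 and 2 and the lowest in JAK inhibitor-treated mouse 3, but JAK inhibitor-treated mice 1 and 2 lay above vehicle-treated mouse 3. Means were 3.703 ± 1.65 (SD, n = 3) and 1.91 ± 1.11 (SD, n = 3). On the log2(FPKM + 1) scale, the fold change was -0.71 (SE 0.36, 95% confidence interval -1.52 to 0.09, adjusted p = 0.37 in limma, exact 2-sided permutation test p = 0.3). Omitting mouse 3 of the JAK inhibitor group gave -0.36, and omitting mouse 2 of the vehicle group gave -0.46.

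In vehicle-treated mice the order of the mean FPKM was *Ccr2*, *Ccl8*, *Ccl12*, *Ccl2* and *Ccl7*. The ranges of *Ccl8*, *Ccl12* and *Ccl2* overlapped. With JAK inhibitor the order was *Ccr2*, *Ccl8*, *Ccl2*, *Ccl12* and *Ccl7*, and *Ccl8* overlapped with *Ccl2* and *Ccl12*, and *Ccl12* with *Ccl7*. *Ccl12* and *Ccl2* thus exchanged places. Within each mouse, *Ccl12* minus *Ccl2* on the log2(FPKM + 1) scale was 0.46, 0.08 and 0.36 with vehicle and -1.22, -1.17 and -0.74 with JAK inhibitor. This comparison was chosen after the values were seen.

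The receptor and each ligand were then compared within the mouse, as the difference of log2(FPKM + 1). A scaling shared by the genes of a library does not cancel in this difference where a ligand is near 0. Where a ligand was listed at 0, the difference was the *Ccr2* value with its sign reversed. *Ccl12* minus *Ccr2* was -4.64, -4.88 and -5.61 with vehicle and -6.95, -6.84 and -7.56 with JAK inhibitor. The groups were 2.07 apart without overlap (exact 2-sided permutation test, p = 0.1). *Ccl7* minus *Ccr2* was -5.92, -6.18 and -6.84 against -7.59, -7.38 and -7.56, a difference between the groups of -1.19 without overlap (exact 2-sided permutation test, p = 0.1). For *Ccl8* the difference between the groups was -2.43, and for *Ccl2* it was -0.73. Both overlapped (exact 2-sided permutation test, p = 0.2 and p = 0.3). Since *Ccr2* changed little, these differences were close to those of the ligand genes alone. In FPKM, *Ccr2* exceeded the sum of the 4 ligand genes 3.102-fold, 3.87-fold and 23.8-fold in vehicle-treated mice 1 to 3 and 12.4-fold, 49.1-fold and 152.4-fold in JAK inhibitor-treated mice 1 to 3.

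**Figure D2:**
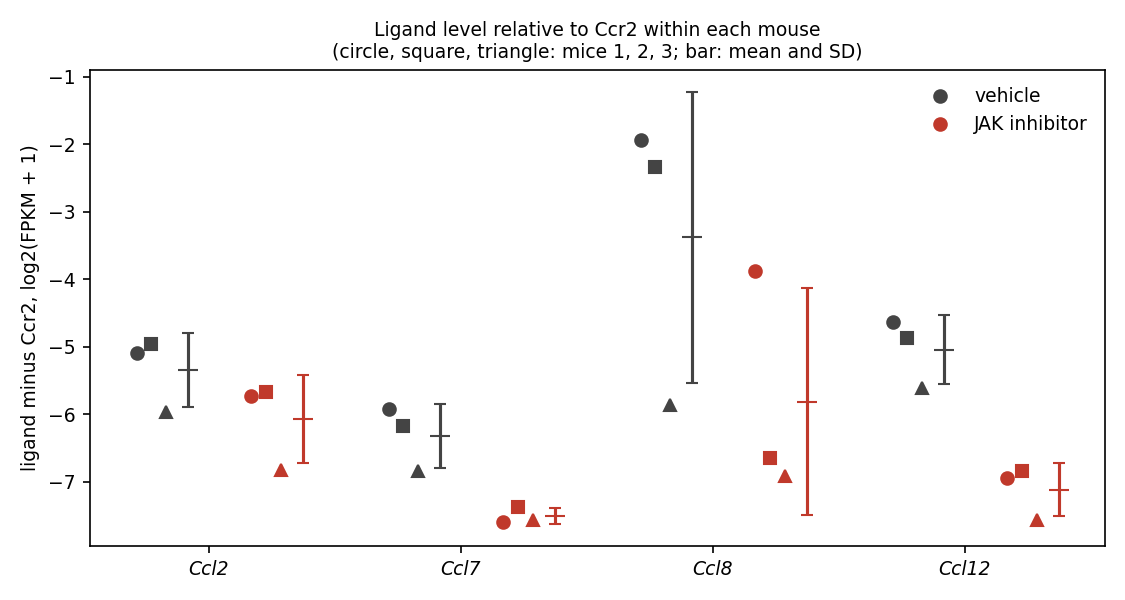
Level of each ligand gene relative to *Ccr2* within the mouse, as a difference of log2(FPKM + 1) (vertical axis), for vehicle-treated (gray) and JAK inhibitor-treated (red) mice. Circles, squares and triangles are mice 1, 2 and 3, and bars are the mean and SD. The groups separated for *Ccl7* and *Ccl12* and overlapped for *Ccl2* and *Ccl8*.

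Among genes of other CC chemokine receptors and related receptors, 2 were lower with JAK inhibitor before adjustment. Of 7 listed genes, 3 were tested, and 2 of these were lower at an unadjusted p under 0.05 and 0 were higher (against 9.4% lower and 6.57% higher of all tested genes), with 0 at an adjusted p under 0.05. The median log2 fold change of the 3 was -0.61, against -0.004 for all tested genes. *Ccr1*, the receptor to which CCL7 also binds, had a log2 fold change of -1.02 (adjusted p = 0.109 in limma). Per unit of *Ccr2*, the FPKM of *Ccr1* was 0.511, 0.357 and 0.6 with vehicle and 0.283, 0.194 and 0.226 with JAK inhibitor. *Ccrl2*, which encodes a receptor related to CC chemokine receptors that does not signal by G proteins, had a log2 fold change of -0.61 (adjusted p = 0.117 in limma). *Ccr8* was listed at 0 in 5 mice and had 0.383 FPKM in vehicle-treated mouse 1, and the scavenging receptor genes *Ackr1*, *Ackr2* and *Ackr4* stayed below 1 FPKM.

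Among 16 other CC chemokine ligand genes, 6 were listed at 0 in every mouse and 7 were tested. At an unadjusted p under 0.05, 3 of the 7 were lower and 1 was higher (against 9.4% lower and 6.57% higher of all tested genes), with 0 at an adjusted p under 0.05. *Ccl5*, *Ccl3* and *Ccl4*, which encode inflammatory chemokines, had log2 fold changes of -1.84, -0.73 and -0.95 (adjusted p = 0.109, 0.109 and 0.12 in limma). *Ccl6*, which monocytes express at a high level, had a log2 fold change of 0.40 (adjusted p = 0.271 in limma), with 527.8, 413.6 and 322.2 FPKM with vehicle and 582.3, 500.2 and 560.6 with JAK inhibitor. Its level exceeded that of each of the 4 CCR2 ligand genes in every mouse.

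**Figure D3:**
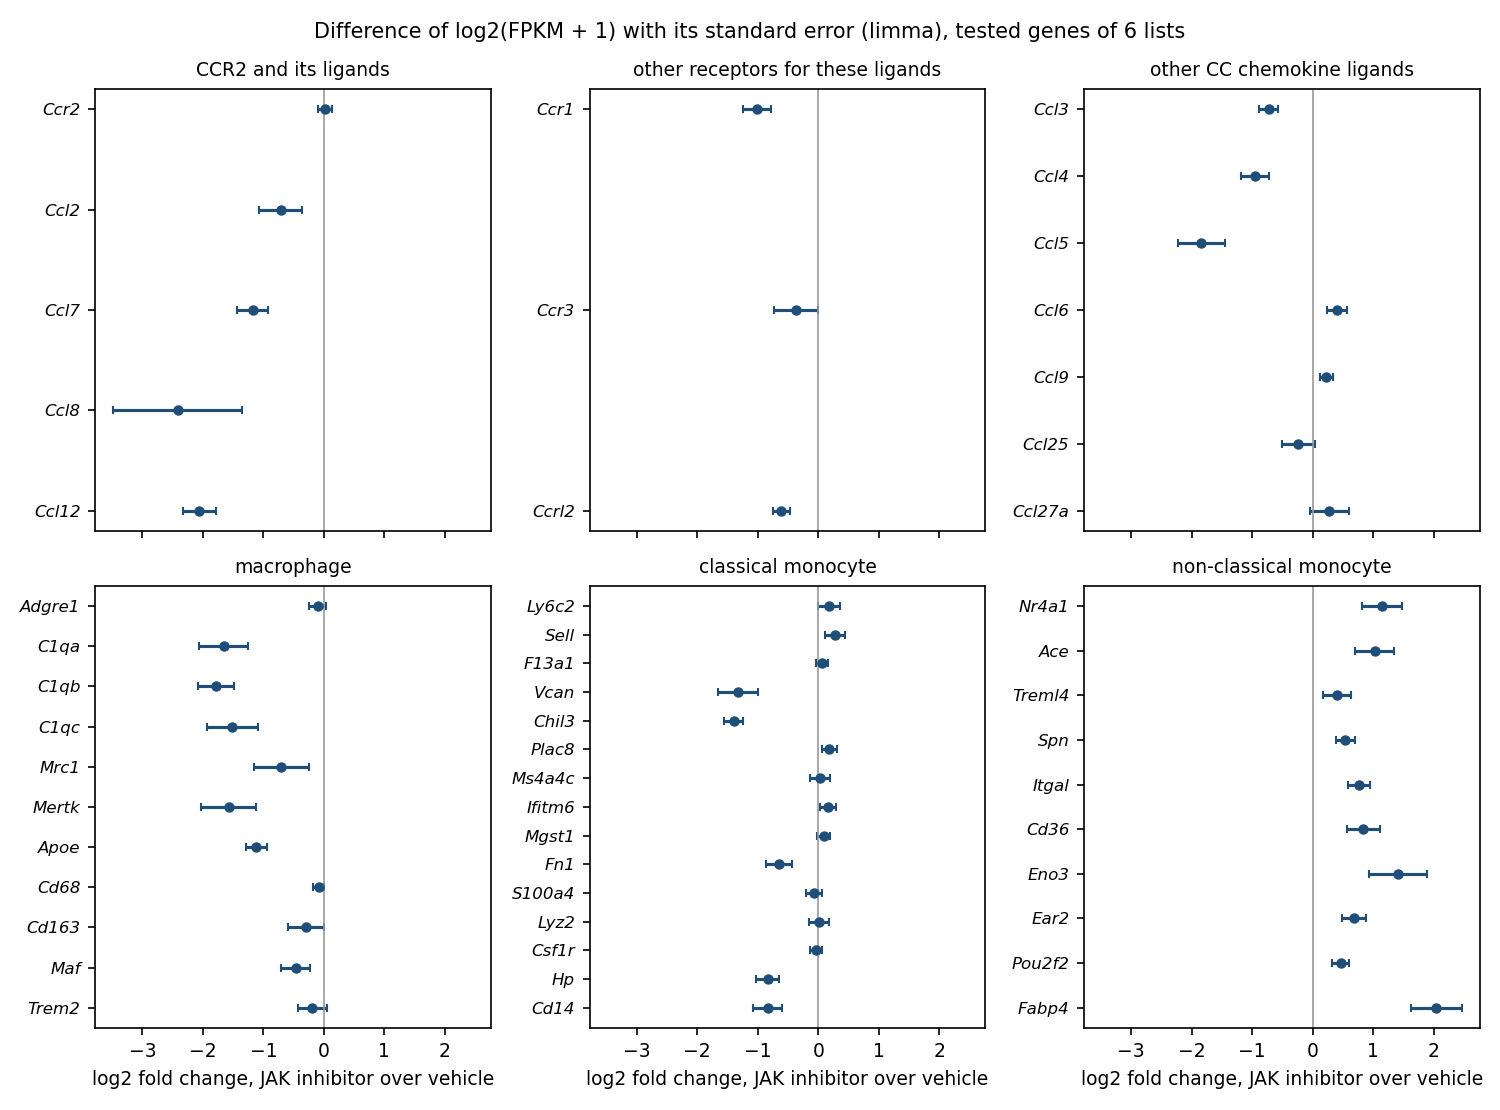
Log2 fold change, JAK inhibitor over vehicle (horizontal axis), of the tested genes of 6 lists. Points are the difference of log2(FPKM + 1) and bars its standard error in limma. *Ccr2* lay at 0.01 and *Ccl12* at -2.06, *Ccr1* and *Ccrl2* lay below 0, and all 11 tested macrophage genes lay below 0 and all 10 non-classical monocyte genes above 0.

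Genes that act downstream of CCR2 were called about as often as all genes in the lower direction. Of 26 listed names, 25 were in the table and tested, and 2 were lower and 4 higher at an unadjusted p under 0.05 (against 9.4% lower and 6.57% higher of all tested genes), with 0 at an adjusted p under 0.05. The median log2 fold change was 0.09. *Gnai2*, the G protein subunit through which chemokine receptors signal, had a log2 fold change of -0.005, and *Nup85*, which encodes the CCR2-binding protein FROUNT, had -0.07. Neither passed the unadjusted threshold. *Rgs2*, a brake on G protein signaling, had a log2 fold change of 0.37 and the receptor kinase gene *Grk5* had 0.61, whereas the receptor kinase gene *Adrbk1* (GRK2) had -0.34 and the PI3K-gamma subunit gene *Pik3r5* -0.50 (adjusted p = 0.154, 0.21, 0.215 and 0.22 in limma). *Ptk2b*, a kinase of cell migration, had 0.26 (adjusted p = 0.221 in limma). *Rgs1*, named after its value was seen, had -0.71, the largest in size of this list, and did not pass the unadjusted threshold.

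Among 18 genes that control transcription of the ligands or decay of their mRNA, 8 were lower and 1 higher at an unadjusted p under 0.05 (against 9.4% lower and 6.57% higher of all tested genes), and 0 passed the adjusted threshold. The median was -0.17. *Tnfaip3* (A20) and *Nfkbia* (I-kappa-B-alpha), inhibitors that NF-kB itself induces, had log2 fold changes of -1.06 and -1.01 (adjusted p = 0.0665 and 0.0688 in limma). *Fos* and *Jun*, the subunits of AP-1, had -1.07 and -0.90 (adjusted p = 0.122 and 0.109 in limma). *Zfp36l2*, which encodes a protein of mRNA decay, had 0.58 (adjusted p = 0.117 in limma). *Rela*, the NF-kB subunit gene named here after its value was seen, had -0.08.

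Some macrophage genes, among them those of complement C1q, were lower with JAK inhibitor before adjustment. Of 12 listed macrophage genes, 11 were tested, and 5 were lower and 0 higher at an unadjusted p under 0.05 (against 9.4% lower and 6.57% higher of all tested genes), with 0 at an adjusted p under 0.05 and a median log2 fold change of -0.70. Their summed FPKM was 2337 to 3109 with vehicle and 1304 to 1569 with JAK inhibitor, and *Vsig4* was listed at 0 in 5 mice and had 0.543 in JAK inhibitor-treated mouse 2. The complement genes *C1qb*, *C1qa* and *C1qc* had log2 fold changes of -1.78, -1.66 and -1.51, *Mertk*, a receptor for dying cells, had -1.57, and the lipid carrier gene *Apoe* had -1.11 (adjusted p = 0.0721, 0.122, 0.154, 0.158 and 0.0557 in limma). *Cd68*, *Adgre1* (F4/80) and *Trem2*, named after their values were seen, had -0.08, -0.10 and -0.19 and did not pass the unadjusted threshold. The part of macrophage number in the ligand values was not tested.

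Classical monocyte genes, the group to which *Ccr2* belongs, had a median log2 fold change near 0, but all that passed the unadjusted threshold were lower. Of 15 tested genes, 5 were lower and 0 higher at an unadjusted p under 0.05 (against 9.4% lower and 6.57% higher of all tested genes), 1 passed the adjusted threshold, and the median was 0.01. *Chil3*, a chitinase-like protein of activated myeloid cells, fell by 1.39 on the log2 scale (adjusted p = 0.0189 in limma). Its adjusted p was 0.0713 without mouse 1 and 0.0744 without mouse 3 of the JAK inhibitor group, 0.216 with no filter and 0.0792 with no trend in limma. *Vcan*, *Hp*, *Cd14* and *Fn1* had log2 fold changes of -1.33, -0.84, -0.83 and -0.65 (adjusted p = 0.122, 0.117, 0.16 and 0.191 in limma). *F13a1* and *Plac8*, named after their values were seen, had 0.06 and 0.18, near that of *Ccr2*. Of 10 non-classical monocyte genes, 9 were higher and 0 lower at an unadjusted p under 0.05 (against 9.4% lower and 6.57% higher of all tested genes), and 0 passed the adjusted threshold. *Fabp4*, *Itgal*, *Spn*, *Nr4a1* and *Ear2* had log2 fold changes of 2.05, 0.77, 0.54, 1.14 and 0.68 (adjusted p = 0.109, 0.113, 0.158, 0.159 and 0.164 in limma). The sum of these 10 genes was 353.4 to 770.8 FPKM with vehicle and 830.6 to 984.8 with JAK inhibitor.

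Genes with the nearest profile over the 6 mice were sought among 7741 tested genes with a mean of at least 5 FPKM. Likeness was the root mean square difference of log2(FPKM + 1) after each gene was centered on its mean, given as a description. *C1qb* was nearest to *Ccl12* (0.281), followed by *C1qa* (0.412) and the complement factor B gene *Cfb* (0.527). *Ccl12* was 3.24%, 3.28% and 3.2% of the FPKM of *C1qb* with vehicle and 1.02%, 1.45% and 0% with JAK inhibitor. Nearest to *Ccl2* were *Fkbp11* (0.268) and the MHC class II genes *H2-Eb1* (0.302) and *H2-Ab1* (0.306), and nearest to *Ccl7* were the ceruloplasmin gene *Cp* (0.249), *H2-Aa* (0.257) and *Ybx3* (0.258). *Ccl8* had no gene as close, but profiles were not scaled to a common spread. Since *Ccl8* varied the most of the 5 genes, its distances cannot be set against those of the others. Nearest to *Ccl8* were the mast cell protease genes *Cma1* (0.753) and *Tpsb2* (0.968) and the chemokine gene *Pf4* (0.931), which platelets and some macrophages express. *Cma1* had 9.83, 23.1 and 3.21 FPKM with vehicle and 9.06, 0.523 and 0.858 with JAK inhibitor, so JAK inhibitor-treated mouse 1 was high for *Cma1* and for *Ccl8* alike. Most mast cell genes did not have this profile. In a list of 9 made after values were seen, *Mcpt4* was highest in the same 3 mice as *Ccl8*, but *Cpa3* had 146.4, 195.6 and 119.6 FPKM with vehicle and 161.4, 153.9 and 115.0 with JAK inhibitor, and *Kit*, *Fcer1a*, *Ms4a2*, *Gata2* and *Hdc* likewise overlapped between the groups. A list of 7 resident macrophage genes, *Pf4* among them, was also made after values were seen. Their summed FPKM was 205.1, 257.6 and 117.3 with vehicle and 198.4, 135.5 and 145.6 with JAK inhibitor. *Folr2* had 8.255, 6.532 and 0 against 3.33, 0.137 and 0.8, whereas *Sepp1* had 157.1, 192.1 and 101.8 against 166.0, 125.0 and 137.3. *Ccr2* was nearest to *Phf20* (0.034), *Tgs1* (0.042) and *Nudt14* (0.05), genes that also changed little.

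**Figure D4:**
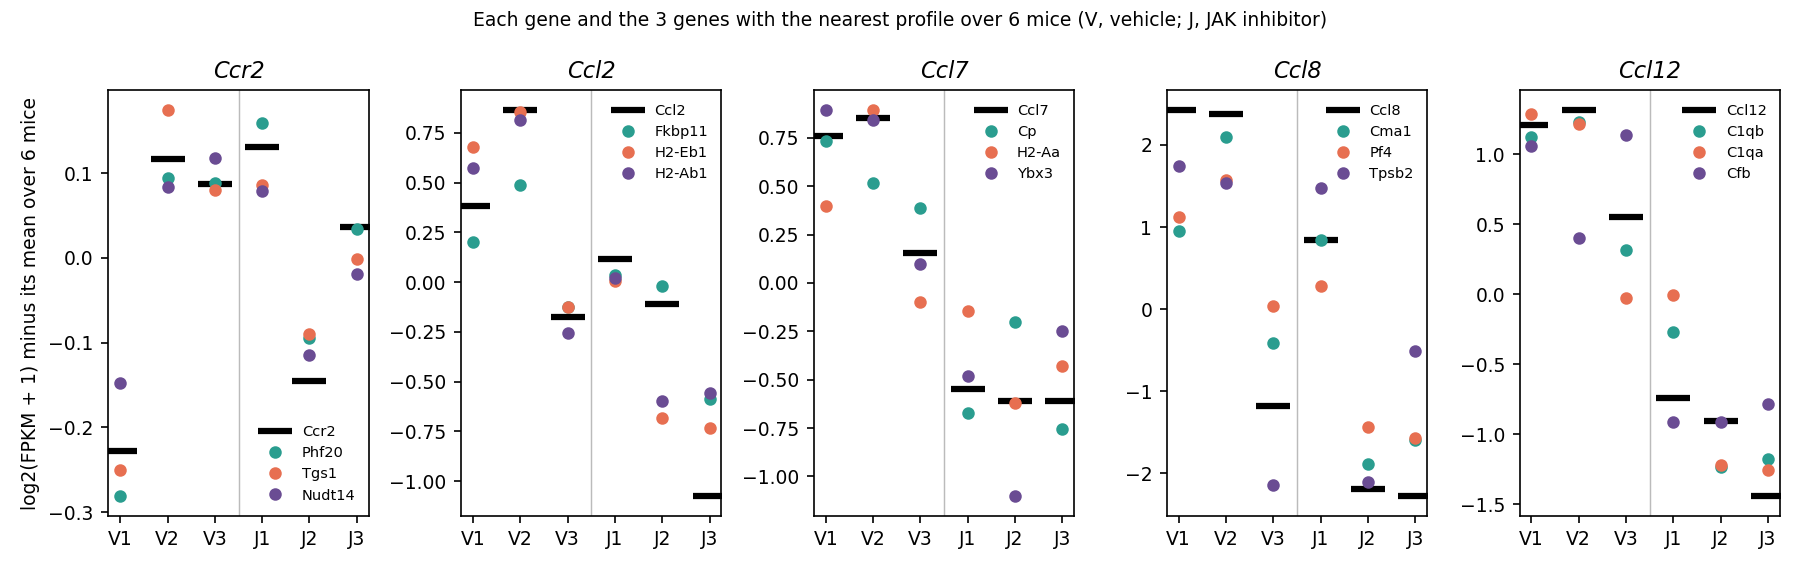
Log2(FPKM + 1) minus its mean over the 6 mice (vertical axis, a separate scale for each panel) in vehicle-treated mice 1 to 3 (V1 to V3) and JAK inhibitor-treated mice 1 to 3 (J1 to J3). Black bars are the gene named above each panel, and colored points the 3 genes with the nearest profile. *C1qb* followed *Ccl12* with a root mean square difference of 0.281, and *Cma1* followed *Ccl8* with 0.753.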

How the data were processed

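The authors deposited 1 table of FPKM values per mouse, with 24346 gene symbols. The unit was taken from the values and from Cufflinks being among the tools in the submitters' processing notes, which name TopHat2 2.0.13, Bowtie2 2.2.3, SAMtools 0.1.19 and Cufflinks 2.2.1 and the build mm10. The annotation is not given in the sources used here. Labels name a SMART-Seq HT and Nextera library, and the methods a TruSeq Stranded mRNA kit. Depth is unknown, so no counting intervals are given.

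The 11301 genes that reached 1 FPKM in any mouse were compared on log2(FPKM + 1) with limma 3.58.1 in R 4.3.3 (empirical Bayes with a trend, 2-sided, Benjamini-Hochberg adjustment over all tested genes), without a replicate block. The fit was tested on simulated data, in which changes were placed only in genes of higher level. That test does not cover genes near 0, such as *Ccl7* and *Ccl12*. Exact permutation tests used SciPy 1.17.1. The members and gene lists were chosen with earlier results of these data known. Of each list, up to 5 genes with the smallest unadjusted p under 0.05 were named, and others are marked as named after their values were seen, apart from genes used to describe cell content, levels or roles. Alternatives were a pseudocount of 0.1, other filters, quantile, median ratio and common-sum scaling, no trend, library weights, a replicate block and each mouse left out. Promoters were given for 3 of the 5 genes in the RefSeq table used; *Ccl2* and *Ccl7* were not in it. Genes that were on 2 of the lists in the plan are not reported here, and the counts of those lists were made without them.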

Additional observations from a re-analysis of the deposited data

How the results depend on the processing

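The log2 fold changes of the 4 ligand genes kept their direction under every alternative in which they were tested; with the filter of at least 1 FPKM in 3 mice, *Ccl7* was not tested. *Ccr2* ranged from -0.0952 to 0.0910 with 1 mouse left out. *Ccl12* lost the adjusted call with a pseudocount of 0.1 (-3.75), without a filter or without the trend (-2.06 in both) and in 4 of the 6 fits that left out 1 mouse (-2.29 to -1.85 over the 6), and its adjusted p ranged from 0.00909 to 0.216 over the 15 alternatives. With 1 mouse left out, *Ccl2* ranged from -0.98 to -0.36, *Ccl7* from -1.40 to -1.05 and *Ccl8* from -3.61 to -1.81. A pseudocount of 0.1 gave -3.61 for *Ccl7* minus *Ccr2* and -3.76 for *Ccl12* minus *Ccr2*. Rescaling to a common sum gave -1.48 for *Ccl7* minus *Ccr2* and -2.34 for *Ccl12* minus *Ccr2*. Genes with an adjusted p under 0.05 numbered 15, and they numbered 2 without a filter, 34 with the stricter filter, 2 without the trend, 63 with library weights and 67 with the replicate number as a block. It ranged from 3 to 95 with 1 mouse left out (5, 6 and 3 without JAK inhibitor-treated mice 1, 2 and 3, and 95 and 94 without vehicle-treated mice 2 and 3). The cause was not tested. Same-numbered mice had correlations across genes of 0.016, 0.054 and -0.00016, and other pairs of mice had -0.038 to 0.019. These values do not settle whether mice were paired. In this balanced design, a replicate block cannot change a log2 fold change, only its error. With the block, the SE was 0.13 for *Ccr2*, 0.22 for *Ccl2*, 0.28 for *Ccl7*, 0.60 for *Ccl8* and 0.21 for *Ccl12*. Without it, these were 0.12, 0.36, 0.26, 1.06 and 0.28. No adjusted call of the 5 genes changed. Low FPKM limit *Ccl7* and, with JAK inhibitor, *Ccl12*.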
